A study of Homo sapiens with 2 samples.

Results

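The genes described here encode the proteasome and its inducible form, the immunoproteasome, in HGC-27, an established line of human gastric carcinoma cells. The members are 46 listed genes for the subunits, activators, inhibitor and assembly chaperones of the particle, and 45 of them were matched by Ensembl identifier and current symbol among the 63677 genes of the table. The remaining one, PSMB3, had no matching identifier and has no value here. RNA was sequenced from 2 cultures, both transfected with the reagent INTERFERin and collected 48 hours later: the control culture received the empty plasmid pcDNA3.1, and the other received pcDNA3.1 carrying the long non-coding RNA lncPSCA. Each group has 1 library, with 21552098 counts in control and 23016646 in lncPSCA, so no difference has a replicate check and no test between the groups was possible. The question the design poses is which transcripts differ in abundance when lncPSCA is overexpressed.

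Proteasomes degrade proteins tagged with ubiquitin. A barrel of alpha and beta subunits (the 20S core) does the cutting, and a cap of ATPase and non-ATPase subunits (the 19S particle) recognises, unfolds and feeds the substrates. Interferons are known to induce alternative catalytic subunits, PSMB8, PSMB9 and PSMB10, which take the places of PSMB5, PSMB6 and PSMB7 in newly assembled cores, and the PA28 cap made of PSME1 and PSME2. Immunoproteasomes are known for producing peptides that suit MHC class I presentation, and blood cells hold them without induction.

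The promoters of the immunoproteasome genes are shown first because 4 of the 5 carry one short sequence. Promoter windows came from RefSeq (GRCh38.p14) and run from 250 bases before a start site to 50 after it. They matched 40 of the 46 members, and those without a window were PSMA7, PSMB1, PSMB6, PSMB7, PSMD4 and PSMG3. The windows were searched on both strands for the interferon-stimulated response element (ISRE), a binding site of interferon-activated transcription factors, written as GAAANNGAAA. It was found in PSMB8, PSMB10, PSME1 and PSME2 but not in PSMB9, and in 2 of the other 35 members, PSMA4 and PSMB4. Of all 27305 genes with a window, 4.38% held it. In all 4 immunoproteasome genes the letters were GAAAGCGAAA or their reverse complement, which 34 of the 27305 genes held (0.125%) and none of the other 35 members did. These exact letters were singled out after the matches were seen. A match describes the letters only. The windows below are printed 5′ to 3′ along each gene, up to 30 bases after the start site, with the ISRE match in capitals.
PSMB8 (chr6:32844018-32844297, minus strand): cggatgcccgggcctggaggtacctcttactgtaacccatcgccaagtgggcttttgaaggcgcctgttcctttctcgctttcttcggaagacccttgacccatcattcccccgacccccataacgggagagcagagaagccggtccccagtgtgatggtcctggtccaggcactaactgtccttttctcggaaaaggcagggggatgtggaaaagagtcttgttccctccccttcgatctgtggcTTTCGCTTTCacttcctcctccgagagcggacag
PSMB10 (chr16:67936821-67937100, minus strand): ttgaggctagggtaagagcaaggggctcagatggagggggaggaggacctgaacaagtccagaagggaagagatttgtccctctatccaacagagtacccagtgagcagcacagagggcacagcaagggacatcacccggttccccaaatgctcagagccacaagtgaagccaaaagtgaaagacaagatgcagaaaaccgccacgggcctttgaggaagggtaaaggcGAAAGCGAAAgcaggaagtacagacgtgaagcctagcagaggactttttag
PSME1 (chr14:24135944-24136223, plus strand): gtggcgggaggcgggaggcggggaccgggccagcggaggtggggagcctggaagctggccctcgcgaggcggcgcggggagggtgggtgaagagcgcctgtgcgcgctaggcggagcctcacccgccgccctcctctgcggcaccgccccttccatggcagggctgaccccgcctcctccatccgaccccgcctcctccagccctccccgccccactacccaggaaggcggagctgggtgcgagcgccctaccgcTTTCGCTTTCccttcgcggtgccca
PSME2 (chr14:24146581-24146860, minus strand): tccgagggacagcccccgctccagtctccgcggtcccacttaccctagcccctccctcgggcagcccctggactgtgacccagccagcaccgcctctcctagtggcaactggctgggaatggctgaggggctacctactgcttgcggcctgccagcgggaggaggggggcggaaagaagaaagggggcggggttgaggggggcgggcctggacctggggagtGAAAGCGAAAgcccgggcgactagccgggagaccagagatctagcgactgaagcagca

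In PSMB8 the match ran from base -4 to base 6 around the start site, and the window of the other PSMB8 start site held none. In PSMB10 it ran from -21 to -12, in PSME2 from -28 to -19 and in PSME1 from 6 to 15. In all 4 genes it therefore lay within 28 bases of the start. PSMB9 is shown beside its neighbour TAP1, a subunit of the transporter that carries peptides into the endoplasmic reticulum, because the genes point away from each other. Their start sites, 32854192 and 32853704 on chromosome 6, have 487 bases between them. TAP1 held 2 matches, which overlap each other and lie 354 to 369 bases upstream of the PSMB9 start, outside the PSMB9 window.
PSMB9 (chr6:32853942-32854221, plus strand): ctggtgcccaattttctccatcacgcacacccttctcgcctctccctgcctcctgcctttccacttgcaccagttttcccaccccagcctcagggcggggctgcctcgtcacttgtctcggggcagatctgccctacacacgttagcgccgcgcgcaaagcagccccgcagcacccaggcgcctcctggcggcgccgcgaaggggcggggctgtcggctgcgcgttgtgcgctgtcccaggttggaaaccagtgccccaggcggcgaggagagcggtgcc
TAP1 (chr6:32853675-32853954, minus strand): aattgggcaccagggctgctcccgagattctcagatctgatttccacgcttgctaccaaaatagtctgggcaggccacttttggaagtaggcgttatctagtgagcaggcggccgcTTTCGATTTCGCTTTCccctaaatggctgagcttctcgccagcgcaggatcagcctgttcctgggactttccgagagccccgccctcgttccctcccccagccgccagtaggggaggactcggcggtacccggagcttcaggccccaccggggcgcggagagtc

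**Figure D1:**
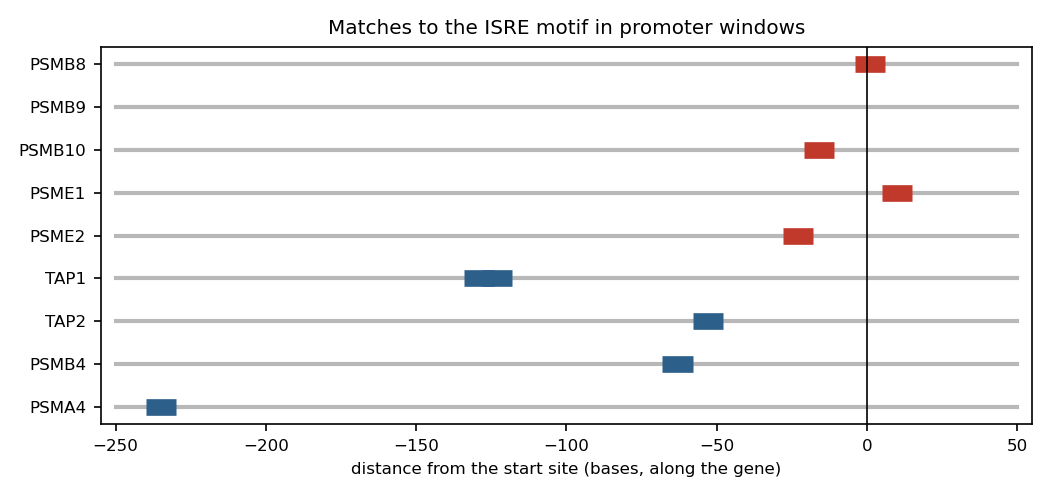
Positions of ISRE matches in promoter windows, as the distance in bases from the start site along the gene. Grey lines are windows, red bars are matches of immunoproteasome genes and blue bars those of other genes. The matches of PSMB8, PSMB10, PSME1 and PSME2 sit within 28 bases of the start site, and PSMB9 has none.

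Other searched motifs were spread differently. The gamma-activated sequence (GAS), an element of interferon-gamma responses written TTCNNNGAA, which reads the same on both strands, was found in 1 of the 5 immunoproteasome genes (PSMB8) and in 6 of the other 35 members, against 9.38% of all genes. The core of the antioxidant response element (ARE), written TGACNNNGC, which NFE2L1 and NFE2L2 bind, was found in 12 of the other 35 members (34.3%) and in PSMB9, PSME1 and PSME2, against 16.1% of all genes. The 12 were PSMA4, PSMB3, PSMC4, PSMC5, PSMD1, PSMD3, PSMD5, PSMD9, PSMD12, PSME4, PSMG1 and PSMG2. No match of one of these motifs overlapped an ISRE match.

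The libraries were set side by side after scaling by the trimmed mean of M values, as counts-per-million values (CPM). A gene counted as measured if its mean over both libraries was at least 1 CPM, which 15440 genes and all 45 matched members were. A measured gene was called higher or lower in the lncPSCA library if it differed at least 2-fold, on counts plus a pseudocount of 1, with a 95% counting interval of the fold wholly beyond 1.5-fold. Folds are ratios of CPM, lncPSCA over control, and the intervals in parentheses are exact (Clopper-Pearson) and cover counting error only. By this rule 2 of the 45 members were higher, PSMB9 and PSMB8, against 3.02% of all measured genes. None of the 45 was lower, against 0.596% of all measured genes.

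All 5 immunoproteasome genes had a higher CPM in the lncPSCA library, and 29 of the 30 measured constitutive subunits had fewer. The median log2 ratio was 0.89 for the immunoproteasome group and -0.30 for the constitutive subunits (the 20S and 19S subunits without the inducible ones and the chaperones), against -0.02 for all measured genes. Every immunoproteasome gene had an interval wholly above 1-fold, against 27% of all measured genes. Of the 30 constitutive subunits, 27 had an interval wholly below 1-fold, against 32.1% of all measured genes. Intervals narrow as reads increase, and neither share of all measured genes is matched for abundance. Most constitutive subunits are among the abundant genes, as given below. Log2 ratios below 0 made up 51.9% of all measured genes. The immunoproteasome group took 3.53% of the reads of all members in control and 7.57% in lncPSCA.

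**Figure D2:**
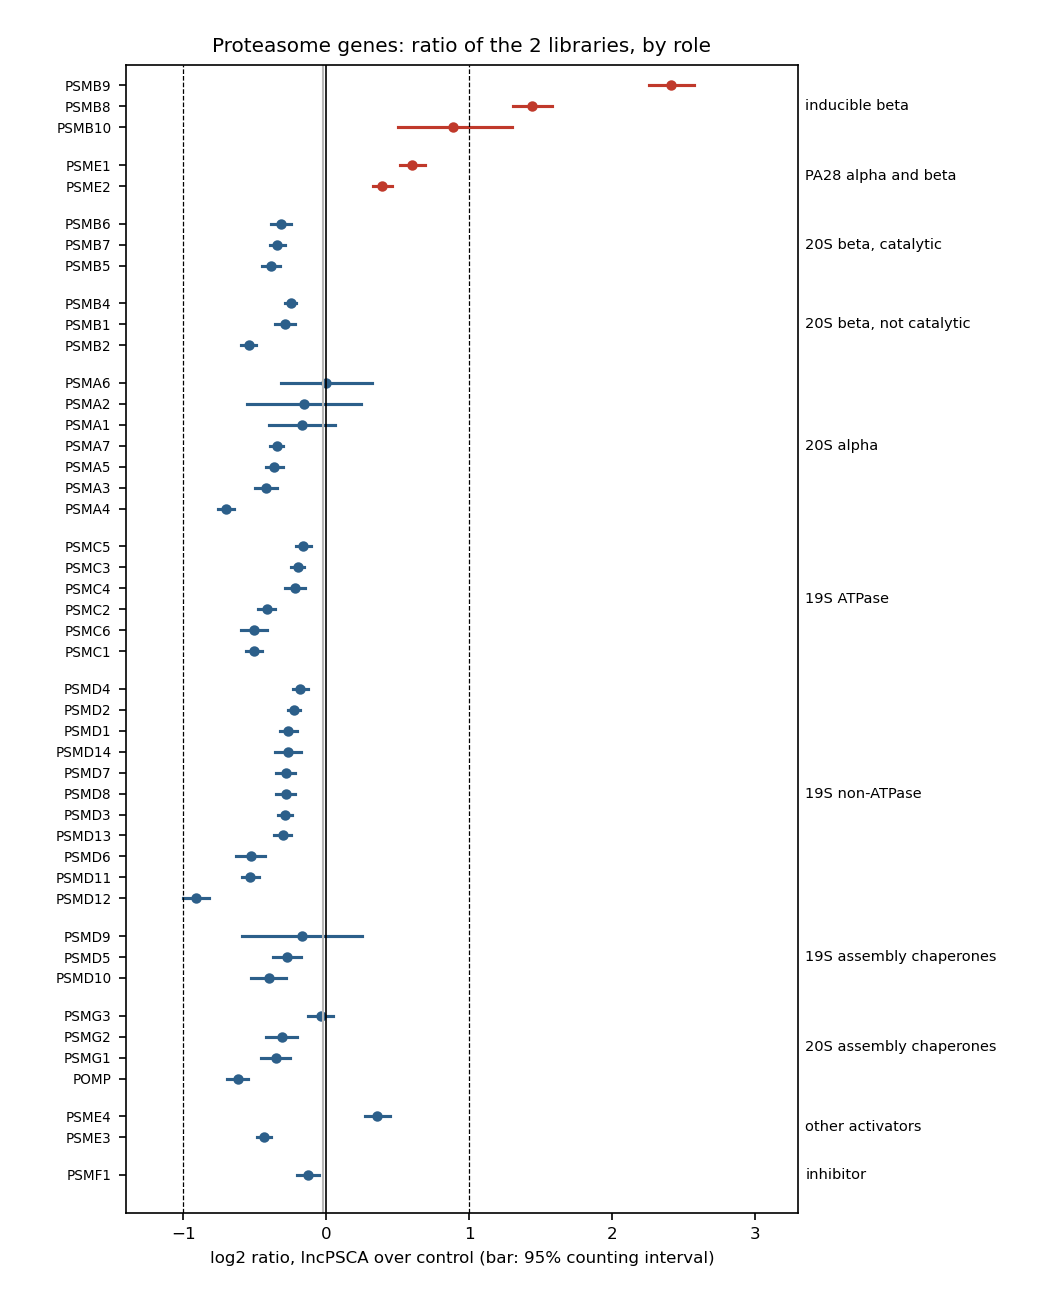
Log2 ratio of lncPSCA over control for the 45 matched proteasome genes, grouped by role; points are ratios, bars are 95% counting intervals, dashed lines mark 2-fold and the grey line the median of all measured genes. Red marks the immunoproteasome group, whose ratios run from 0.39 to 2.41, while those of the constitutive subunits run from -0.91 to 0.00.

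PSMB9, the inducible subunit that replaces the caspase-like PSMB6, had 386 reads in control and 2292 in lncPSCA. This was 18.3 against 97.5 CPM, a fold of 5.33 (4.78 to 5.95), the largest of any member. PSMB8, which replaces the chymotrypsin-like PSMB5, had 566 and 1713 reads. In CPM these were 26.8 and 72.9, for a fold of 2.72 (2.47 to 2.99). The log2 ratio of PSMB9 lay above that of 99.4% of measured genes and that of PSMB8 above 98.5%. A change in RNA per cell and a change in the share of cells that express a gene cannot be told apart in these bulk libraries.

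PSMB10, which replaces the trypsin-like PSMB7, had far fewer reads, 80 in control and 166 in lncPSCA. Its fold of 1.86 (1.42 to 2.46) fell short of the rule, as it did under all 9 other settings tried, where its log2 ratio lay between 0.76 and 0.95. PSMB10 shares 34.8% of its exonic bases with a gene on the same strand in GENCODE release 29, and how reads over 2 genes were counted is not given in the sources used here. PSMB8 and PSMB9 lie on opposite strands of chromosome 6 in the MHC region. They overlap each other, over 4.64% of the exonic bases of PSMB8 and 4.52% of those of PSMB9. Both also overlap the non-coding gene PSMB8-AS1, which covers 20.6% of the exonic bases of PSMB8 and 5.66% of those of PSMB9. PSMB8-AS1 itself had 271 and 1401 reads, a fold of 4.64 (4.07 to 5.30). Whether counting used the strand is also not given, so reads over these overlaps cannot be told apart. Whether some reads of these MHC genes were assigned to further copies of the region was not tested.

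The PA28 subunits had smaller folds from higher levels. PSME1 had 1809 and 3063 reads, or 85.7 and 130 CPM, a fold of 1.52 (1.43 to 1.61). PSME2 had 3125 and 4571 reads, or 148 and 194 CPM, a fold of 1.31 (1.25 to 1.37). Neither reached 2-fold. Their log2 ratios of 0.60 and 0.39 lay above those of 89.4% and 81.4% of measured genes.

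**Figure D3:**
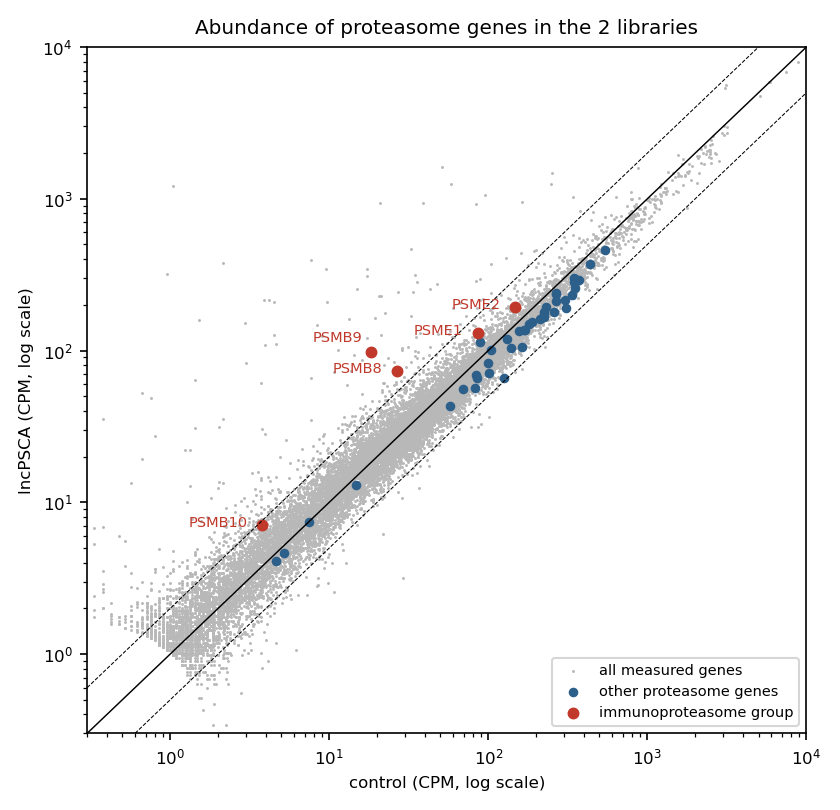
CPM in the control library (horizontal) and the lncPSCA library (vertical) on log axes, for measured genes with reads in both (grey), the immunoproteasome group (red) and the other matched proteasome genes (blue). The solid line marks equal values and the dashed lines 2-fold; PSMB8 and PSMB9 lie beyond the upper dashed line, and PSMB10, PSME1 and PSME2 lie between it and the solid line.

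Each inducible catalytic subunit was then set against the constitutive one it replaces. The ratio of the folds of such a pair does not depend on how the libraries are scaled. PSMB5 had 4446 and 3800 reads, a fold of 0.767 (0.734 to 0.801), so PSMB8 gained on it by a factor of 3.54 (exact 95% counting interval 3.19 to 3.94). PSMB6 had 3591 and 3217 reads, a fold of 0.804 (0.766 to 0.843), and PSMB9 gained on it by a factor of 6.63 (5.88 to 7.48). PSMB7 had 5647 and 4968 reads, a fold of 0.790 (0.760 to 0.820), and PSMB10 gained on it by a factor of 2.36 (1.79 to 3.13). All 3 intervals lay above 1 and did not overlap one another. They cover counting error only, with 1 library per group, and so cannot rank the pairs. Centring along mean expression shifts genes by their abundance and can change these ratios. With it the log2 difference of PSMB10 and PSMB7 was 0.95 in place of 1.23. It was 1.76 in place of 1.82 for PSMB8 and PSMB5, and 2.68 in place of 2.73 for PSMB9 and PSMB6.

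Levels of different genes were compared per kilobase of the longest principal transcript in GENCODE release 29. In the control library PSMB6 stood at 200 CPM per kilobase and PSMB9 at 23.4, so PSMB9 made up 10.5% of the pair. In the lncPSCA library the levels were 161 and 125 CPM per kilobase, and PSMB9 made up 43.7% of the pair. PSMB8 made up 12.8% of its pair with PSMB5 in control (23.9 and 163 CPM per kilobase) and 34.2% in lncPSCA (64.8 and 125 CPM per kilobase). In both pairs the constitutive transcript remained the more abundant in both libraries. PSMB10 stood at 3.11 and 5.80 CPM per kilobase against 273 and 216 for PSMB7, or 1.13% and 2.62% of the pair. The PSMB10 level carries the overlap described above, whose part in this low share was not tested.

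**Figure D4:**
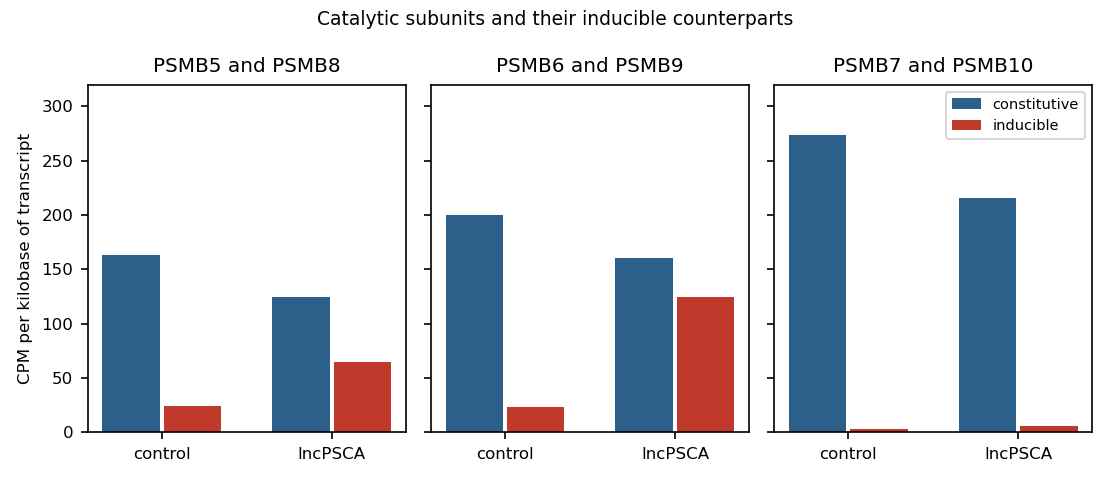
Levels in CPM per kilobase of transcript for each constitutive catalytic subunit (blue) and its inducible counterpart (red) in the control and lncPSCA libraries; each bar is 1 library. PSMB9 goes from 23.4 to 125 beside PSMB6 at 200 and 161, while PSMB10 stays at 3.11 and 5.80.

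In the rest of the 20S core most folds lay slightly below 1. The 7 alpha subunits, which form the outer rings and the gate, had log2 ratios from -0.70 to 0.00 with a median of -0.35. PSMA4 was the lowest, with 6494 and 4454 reads, or 308 and 189 CPM, a fold of 0.616 (0.592 to 0.640). The highest was PSMA6, with 157 and 175 reads, 7.44 CPM in both libraries (interval of the fold 0.802 to 1.25), the single constitutive subunit whose log2 ratio was not below 0. Its ratio was below 0 under upper-quartile scaling (-0.02) and when centred along mean expression (-0.11). The most abundant alpha subunit per kilobase was PSMA7, at 373 CPM per kilobase in control and 294 in lncPSCA. Of the beta subunits without catalytic activity, PSMB2 had the lowest ratio, a fold of 0.686 (0.662 to 0.711) from 7089 and 5422 reads. PSMB4 had the highest, a fold of 0.843 (0.821 to 0.865), and was the most abundant member per kilobase, at 565 CPM per kilobase in control and 476 in lncPSCA.

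All 6 ATPases of the 19S cap, the ring that unfolds substrates, had intervals wholly below 1-fold. Their folds ran from 0.704 (0.679 to 0.731) for PSMC1 to 0.895 (0.863 to 0.929) for PSMC5. PSMC1 shares 75.8% of its exonic bases with NRDE2 on the opposite strand, and PSMC5 shares 19.5% with FTSJ3, and reads over these stretches cannot be told apart. The intervals of all 11 non-ATPase subunits were also wholly below 1-fold. Such an interval was held by 32.1% of all measured genes, a share not matched for abundance. Among the 11, PSMD4, a ubiquitin receptor, was highest at 0.882-fold (0.850 to 0.915) from 5649 and 5552 reads. Centred along mean expression, the log2 ratio of PSMD4 was -0.03 in place of -0.18, and that of PSMC5 was -0.01 in place of -0.16. The scaffold subunit PSMD2 had 9155 and 8718 reads (0.855-fold, 0.830 to 0.880). PSMD14, the enzyme that removes ubiquitin chains from substrates, had a fold of 0.830 (0.780 to 0.883).

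PSMD12, a scaffold subunit of the lid, stood apart from its neighbours. It had 2629 reads in control and 1558 in lncPSCA, or 125 and 66.3 CPM, a fold of 0.532 (0.499 to 0.566). Its log2 ratio of -0.91 was the lowest of any member and above those of 1.33% of measured genes, yet it fell short of the 2-fold limit. The next lowest non-ATPase subunits were PSMD11 at 0.692-fold (0.665 to 0.721) and PSMD6 at 0.693-fold (0.645 to 0.745). Their intervals, which cover counting error only, do not overlap that of PSMD12. Summed over the 30 constitutive subunits, the control level of 6596 CPM compared with 5197 CPM for lncPSCA, and the fold was 0.788 (0.782 to 0.794). The interval of this sum covers counting error only, and the fold shifts with the scaling by more than its width. Without scaling, these subunits held 0.646% of all counts in control and 0.531% in lncPSCA.

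Abundant genes in general had ratios below 0 in these libraries. Of the 30 constitutive subunits, 27 lay in the top quartile of measured genes by mean CPM, where the median log2 ratio was -0.13 and 68.0% of genes were below 0. Centred along mean expression, the constitutive median was -0.17 in place of -0.30, and all 30 subunits were below 0.

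Assembly factors gave no member that met the rule. POMP, the chaperone that matures the 20S core and is known to act with PSMB8 during assembly, had 3439 and 2493 reads, or 163 and 106 CPM, a fold of 0.651 (0.618 to 0.685). Its fold lay below 1, while those of PSMB8, PSMB9 and PSMB10 lay above it. Of the 20S assembly chaperones PSMG1, PSMG2 and PSMG3, PSMG3 had the highest ratio, with 2182 and 2366 reads and a fold of 0.973 (0.918 to 1.03). The sign of its log2 ratio of -0.04 turned with total-count scaling (0.02) and when centred along mean expression (0.08). The 19S chaperones ranged from PSMD10 at 0.757-fold (0.695 to 0.823) to PSMD9 at 0.888-fold (0.664 to 1.19), with PSMD5 at 0.827-fold (0.772 to 0.885).

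The remaining caps are the activators PSME3 and PSME4. PSME3, which forms the nuclear PA28 gamma cap and is not part of the inducible pair, had 7380 and 6097 reads, a fold of 0.741 (0.717 to 0.767). PSME4, the large nuclear activator PA200, had 1864 and 2661 reads, or 88.3 and 113 CPM, a fold of 1.28 (1.21 to 1.36). It was the only member outside the immunoproteasome group with an interval wholly above 1-fold, and that interval overlapped the one of PSME2. The inhibitor PSMF1 had 2753 and 2804 reads, which is 0.914-fold (0.867 to 0.964). The sign of its log2 ratio of -0.13 turned with centring along mean expression (0.01).

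Genes that work with the proteasome were read from lists set beside the members. All 4 interferon factors read here were higher, against 3.02% of all measured genes. STAT2, which carries type I interferon signals, had 749 and 6616 reads, a fold of 7.93 (7.35 to 8.56). NLRC5, a coactivator of MHC class I genes, had a fold of 8.44 (7.62 to 9.37). IRF1, a transcription factor required for much of the immunoproteasome's expression, had 460 and 1430 reads, a fold of 2.79 (2.51 to 3.11). IRF9 rested on 27 and 98 reads, a fold of 3.26 (2.11 to 5.19). On the route of the peptides, TAP1 was 5.71-fold (5.35 to 6.11) higher and the trimming peptidase ERAP2 2.62-fold (2.27 to 3.02) higher. The other 4 of the 6 met the rule in neither direction: TAP2 at 1.18-fold, TAPBP at 1.48-fold, ERAP1 at 1.81-fold and B2M, the light chain of MHC class I, at 1.65-fold.

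No gene of the other lists met the rule in either direction. Of the 5 genes for transcription factors of the NFE2L family and the enzymes that process NFE2L1, NFE2L1 was the most abundant, with 298 and 312 CPM (1.05-fold, 1.01 to 1.08). NFE2L2, its relative in the oxidative stress response, had 975 and 1820 reads and a fold of 1.68 (1.55 to 1.81). Of the 7 measured further proteasome parts, the most abundant were the ubiquitin receptor ADRM1 (290 and 251 CPM) and the scaffold protein ECPAS (239 and 288 CPM), and the list median was -0.21. Subunits specific to testis and thymus, PSMA8 and PSMB11, had 0 and 0 reads and 2 and 0 reads. Substrate delivery factors had a median of -0.13 over 6 genes, led by VCP at 703 and 533 CPM and RAD23B at 407 and 397 CPM.

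**Figure D5:**
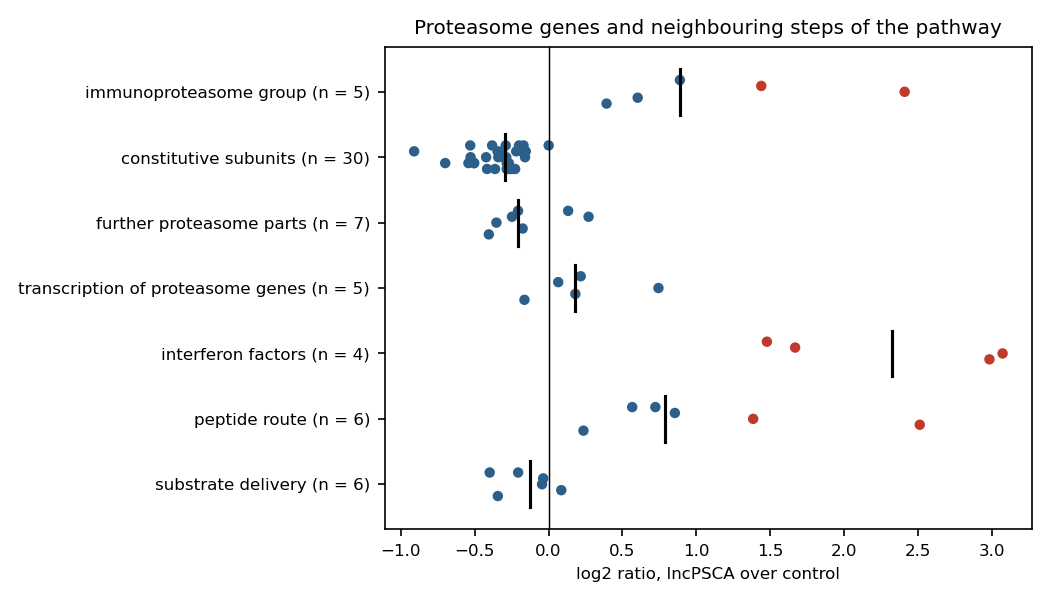
Log2 ratio of lncPSCA over control for measured proteasome genes and neighbouring lists; each point is 1 gene, red points were called higher, blue points were not called and black lines are list medians. The interferon factors (median 2.33), the peptide route (0.79) and the immunoproteasome group (0.89) lie to the right of 0, and the constitutive subunits (-0.30) to the left.

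Markers of blood cells, which hold the immunoproteasome without induction, were low in both libraries. The 7 markers read here summed to 83 reads in control and 53 in lncPSCA, and 2 of them reached 1 CPM (CD14 and ITGAM). PTPRC, the common leukocyte antigen, had 9 and 4 reads, and CD3E and HLA-DRA had none. Epithelial markers were scarce too, in cells labelled as gastric adenocarcinoma. The 5 markers summed to 104 and 85 reads, of which KRT8 gave 66 and 58 and CDH1 26 and 20. KRT18 had 4 and 0 reads, KRT19 1 and 0 and EPCAM 7 and 7. None of 6 gastric lineage markers reached 1 CPM, while the mesenchymal gene VIM stood at 2601 and 2594 CPM.

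Low read numbers limit the precision for 5 members. PSMA1, PSMA2, PSMA6, PSMB10 and PSMD9 are the members whose exons overlap a protein-coding gene on the same strand, and they had 310 control reads or fewer, while the other 40 matched members had 386 or more. The part of the overlap in these low numbers was not tested. Without them, the 27 remaining constitutive subunits were all below 0 with a median of -0.31, and the 4 remaining immunoproteasome genes had a median of 1.02. Members also have processed copies elsewhere in the genome: the table held 45 pseudogenes named after members, with 205 reads in control and 195 in lncPSCA in total.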

How the data were processed

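RNA from 2 HGC-27 cultures, 1 per group, was sequenced. The authors deposited raw read counts per Ensembl gene, whole numbers with different totals (21552098 and 23016646). The submitters' processing notes list TopHat2, HTSeq and the build hg19 with no version. Annotation, strand setting, library kit and the handling of multiply mapped reads: not given in the sources used here. Symbols were matched for 52181 of 63677 identifiers; unmatched ones held 1.22% and 1.30% of counts and stayed in the totals.

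Library sizes were scaled over the whole table by TMM (edgeR 4.0.16; factors 0.979 and 1.02). Log2 ratios used a pseudocount of 1, which shrinks the ratios of weakly covered genes. Counting intervals (95%) treat reads as independent molecules, which reads without molecular identifiers are not. The calculation was tested on simulated counts that varied by counting error only. Such a test checks the arithmetic and cannot show how cultures vary. Overlaps and transcript lengths came from GENCODE release 29 and promoter windows from RefSeq (GRCh38.p14). The promoter search was added after the count table was seen. Some genes of the neighbouring lists are not reported here. No counts were placed by coordinates.

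The members and lists were chosen with earlier results of these data known. Named in full were the immunoproteasome genes, their counterparts, POMP, members meeting the rule and the extremes of each role; of other lists, genes meeting the rule or the 2 most abundant. PSMD2, PSMD14, PSMD11, PSMD6, PSMA7, NFE2L2, PSMA8 and PSMB11 and the remaining genes of the peptide route were named after their values were seen. The alternatives tried were scaling by total counts, by upper quartile or by DESeq2 (1.42.0) size factors, no CPM minimum or one of 5, pseudocounts of 0.5 and 5, and centring on the median or along mean expression (20 bins).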

Additional observations from a re-analysis of the deposited data

How the results depend on the processing

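PSMB8 and PSMB9 were the 2 members called higher, and none was called lower, under each of the 9 alternatives. The constitutive median of -0.30 was -0.24 with total counts and -0.17 when centred along mean expression, and the immunoproteasome median ran from 0.76 to 0.95 over the 9. Over all measured genes, 467 were higher and 92 lower; a minimum of 5 CPM gave 284 and 46, with fewer genes tested, and no minimum gave 150 lower. The share of all measured genes below 0 was 50.5% with DESeq2 size factors, 45.5% with total counts, 54.4% with upper-quartile scaling, 48.8% with no minimum, 55.6% with a minimum of 5 CPM, 50% when centred on the median and 50.1% along mean expression. Leaving out members that overlap a same-strand gene was chosen after seeing the data. Summing identifiers that share a symbol was not run, because the symbol table gives 1 identifier per member. No paired analysis was possible because each group has 1 library, and for the same reason no replicate could be left out. At 80 control reads, the interval of PSMB10 spans 1.42 to 2.46-fold.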

Other observations

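The ISRE letters GAAANNGAAA were also looked for in the promoter windows of genes other than the 46 members. Of 407 measured genes with them, 57 (14.0%) were higher and 2 lower, with a median log2 ratio of 0.14. Of 10199 measured genes without the letters, 253 (2.48%) were higher and 48 lower, with a median of -0.03. These counts cover genes matched to a window by symbol and describe 2 libraries; the difference was not tested.

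The exact letters shared by PSMB8, PSMB10, PSME1 and PSME2, GAAAGCGAAA, stood in the windows of 19 measured genes outside the members. Of these, 4 were higher and none lower, against 3.02% of all measured genes higher, and 12 had a log2 ratio above 0, against 48.1%. The difference was not tested. SHFL, an inhibitor of viral frameshifting, was 27.7-fold (21.5 to 36.2) higher and PARP14, an ADP-ribosyltransferase, 21.6-fold (18.7 to 24.9), against 5.33-fold for PSMB9. The others called higher were TAP1 and PSMB8-AS1. PSMB8-AS1 shares 31.7% of its exonic bases with PSMB8, 23.4% with TAP1 and 8.92% with PSMB9. Reads over these stretches cannot be told apart, so PSMB8-AS1 is not a separate observation from TAP1 or from those members. RNF31, a ubiquitin ligase subunit whose exons overlap those of PSME2 on the opposite strand, had 776 and 1323 reads, a fold of 1.53 (1.40 to 1.67), beside PSME2 at 1.31. TAP2 had a fold of 1.18 (1.07 to 1.30) with the same letters. PSMG4, a 20S assembly chaperone, also holds them and had 1328 and 1310 reads, a fold of 0.885 (0.820 to 0.956). The letters therefore stood beside folds from 0.822 (GRWD1) to 27.7. All genes of this paragraph were named after their values were seen.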
